A study of Saccharomyces cerevisiae with 90 samples.

Results

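The transcriptome of yeast colonies that lacked both SFL1 and YAP6 was set against those of colonies that lacked 1 of these genes. The members are the 3 arrays of the sfl1-yap6 double deletion, the 3 of sfl1, the 3 of yap6 and the 3 of the parent labelled Wild-type filamentous form, which gives 12 of the 70 arrays and 4 of the 21 groups of the colony table. They were chosen by their titles, with earlier results of these data known. Every strain was Saccharomyces cerevisiae of the G85 background, and the wild type carried no further change. The sfl1 strain was sfl1::bcKanMX4, the yap6 strain was yap6::NatMX4, and the double deletion carried both insertions. The last tests also use 3 arrays each of sok2 (sok2::bcKanMX4), of sok2-yap6, which carried yap6::NatMX4 as well, and of sfl1-sok2, in which both genes were replaced with bcKanMX4. All colonies were grown for 10 h on SLAD, a low-ammonium dextrose medium, with uracil and histidine. Biotinylated cRNA made from total RNA of these colonies was hybridised to Affymetrix expression arrays. The labels do not say whether arrays of a group came from separate cultures or transformants. The p-values measure the spread between arrays within the 21 groups, shared as 1 estimate for each gene, and this spread may be technical.

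Sfl1 is a repressor of transcription with a DNA-binding domain like that of heat shock factor, and it is best known for holding down flocculin genes, which encode the adhesins of the yeast surface. Yap6 is a bZIP factor of the Yap family, whose best known member, Yap1, drives the response to oxidants. Starved of nitrogen, diploid yeast of filamentous backgrounds grow as chains of elongated cells, and the flocculin FLO11 is needed for this form. Setting a double deletion against its single deletions and the wild type shows where its changes differ from the sum of the single changes.

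Levels are log2 values from the RMA method (a summary of the probes of each gene after background correction and normalisation), so a difference of 1 is a fold of 2 in signal. The array medians of the 12 arrays lay between 6.31 and 6.52. A gene was called when its adjusted p in limma (two-sided, Benjamini-Hochberg over 5562 genes) was under 0.05, and each ± beside a difference is the standard error of the fit with 3 arrays a group. Colonies are mixtures, and fewer cells of a type and less RNA per cell cannot be told apart in such samples. Markers of other cell states were low and moved little: the mean over the 14 sporulation markers lay between 3.52 and 3.59 in the double deletion and between 3.35 and 3.58 in the other 9 arrays. The mean over the 16 markers of a and alpha haploid cells lay between 4.66 and 4.85 in the double deletion and between 4.58 and 4.95 in the others. Their part in the results was not tested.

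SFL1 read 5.01, 5.56 and 5.32 in the double deletion, 5.78, 5.16 and 5.83 in sfl1, 6.17, 6.45 and 6.65 in yap6, and 7.01, 7.28 and 6.89 in the wild type. All 6 arrays labelled with the sfl1 deletion lay below all 6 others. SFL1 in the double deletion was lower than in yap6 by -1.13 ± 0.20 (adjusted p = 1.09e-05, limma). YAP6 read 2.48, 3.07 and 2.94 in the double deletion, 3.16, 3.46 and 2.85 in sfl1, 2.53, 2.47 and 2.47 in yap6, and 4.12, 3.86 and 4.34 in the wild type. It was a dim gene, with only 3.38% of genes dimmer over the 70 arrays, and its level was already lower in sfl1 than in the wild type by -0.95 ± 0.22 (adjusted p = 0.00137, limma). The double deletion overlapped sfl1 for YAP6 (-0.32 ± 0.22, adjusted p = 0.261, limma), so this check does not separate those groups. It lay below the wild type, by -1.28 ± 0.22 (adjusted p = 2.91e-06, limma).

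The neighbours of SFL1 (RUP1 and ARP8 on chromosome XV in RefSeq R64) were not called in the double deletion against either single. HSP78, a mitochondrial chaperone gene, lies next to YAP6 on chromosome IV, and it was not called in yap6 alone against the wild type (0.78 ± 0.39, adjusted p = 0.139, limma). A part of the inserted marker in the level of HSP78 was not tested. SWM1, on the other side of YAP6, was higher by 0.38 ± 0.14 in yap6 (adjusted p = 0.0451, limma) and by 0.46 ± 0.14 in the double deletion (adjusted p = 0.00742, limma) against the wild type.

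**Figure D1:**
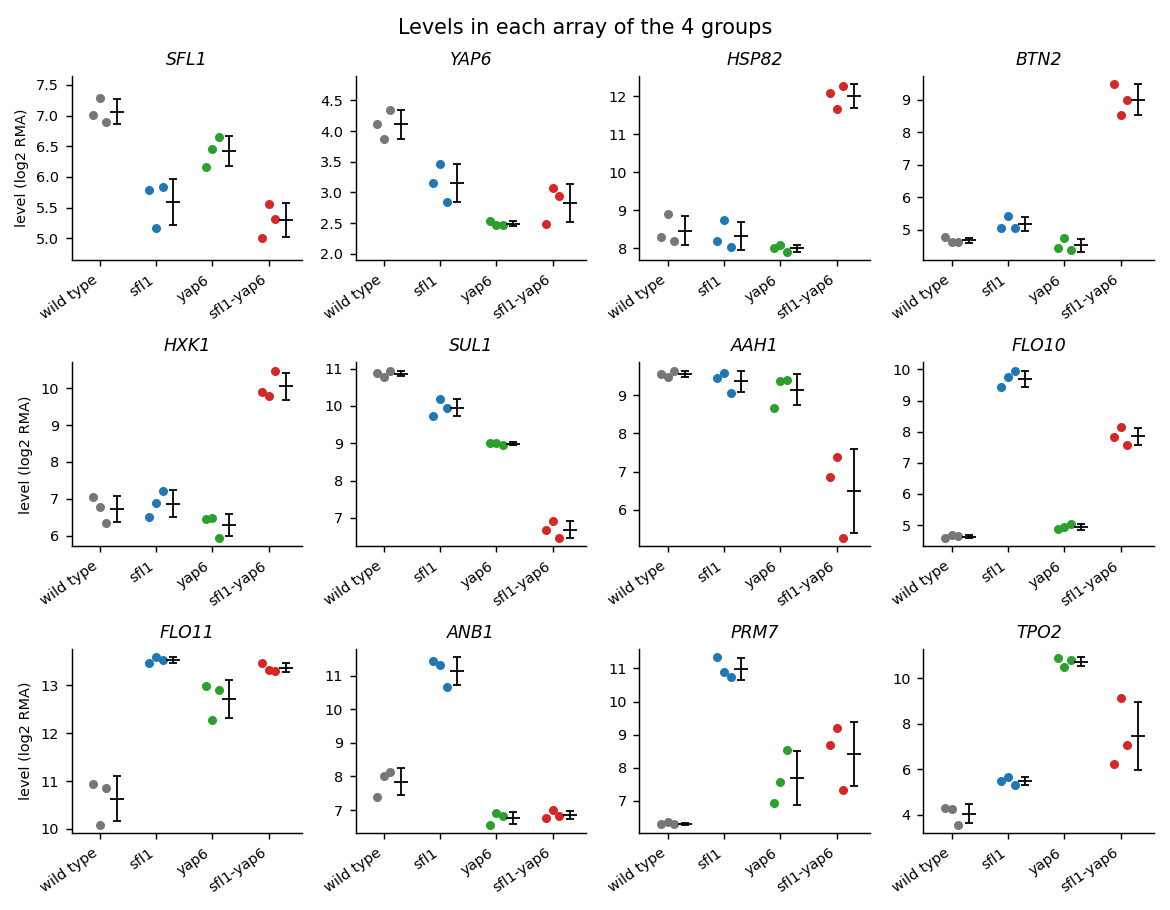
Level (log2 RMA) of 12 genes in each array of the wild type, sfl1, yap6 and sfl1-yap6; points are arrays, and the black bar beside each group is its mean ± SD (n = 3). HSP82, BTN2 and HXK1 are high in the 3 double-deletion arrays alone, and AAH1 is low there alone. SUL1 is lowest there, with yap6, sfl1 and the wild type in rising steps above it. FLO10 lies between the single deletions, and ANB1 is at the level of yap6. TPO2 lies between 6.23 and 9.13 in the double deletion against 10.49 to 10.87 in yap6.

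The double deletion differed from both singles across much of the genome. Against sfl1, 1114 genes (20.0% of those tested) were higher and 757 (13.6%) lower, 33.6% in all. Against yap6, 703 genes (12.6%) were higher and 753 (13.5%) lower, 26.2% in all. The 3 arrays against 3 did not overlap for 2041 genes (36.7%) against sfl1 and for 2394 (43.0%) against yap6. Against the wild type the double deletion was called for 46.6% of genes, sfl1 for 24.8% and yap6 for 23.6%. Without array 3 of the double deletion the count against yap6 fell from 1456 to 817. The departure from additivity is the change of the double against the wild type less the sum of the changes of the singles, and it was above 0 for 463 genes (8.32%) and below 0 for 335 (6.02%), 14.3% in all. These 798 calls became 438 without array 3 of the double deletion and 524 without array 3 of sfl1. The splits also depended on the normalisation. After quantile normalisation 1002 genes were higher and 932 lower than in sfl1, so 51.8% of the calls were upward instead of 59.5%. For the departure the split was then 426 above 0 and 367 below, and against yap6 it was 728 higher and 772 lower. The medians over all 5562 genes were 0.05 against sfl1, 0.03 against yap6 and 0.07 for the departure. The 3 arrays of the double deletion lay above all 9 others for 575 genes (10.3%) and below all 9 for 479 (8.61%). Since the wild type and the single deletions enter several of these comparisons, their values are given side by side with no test of one against the other.

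**Figure D2:**
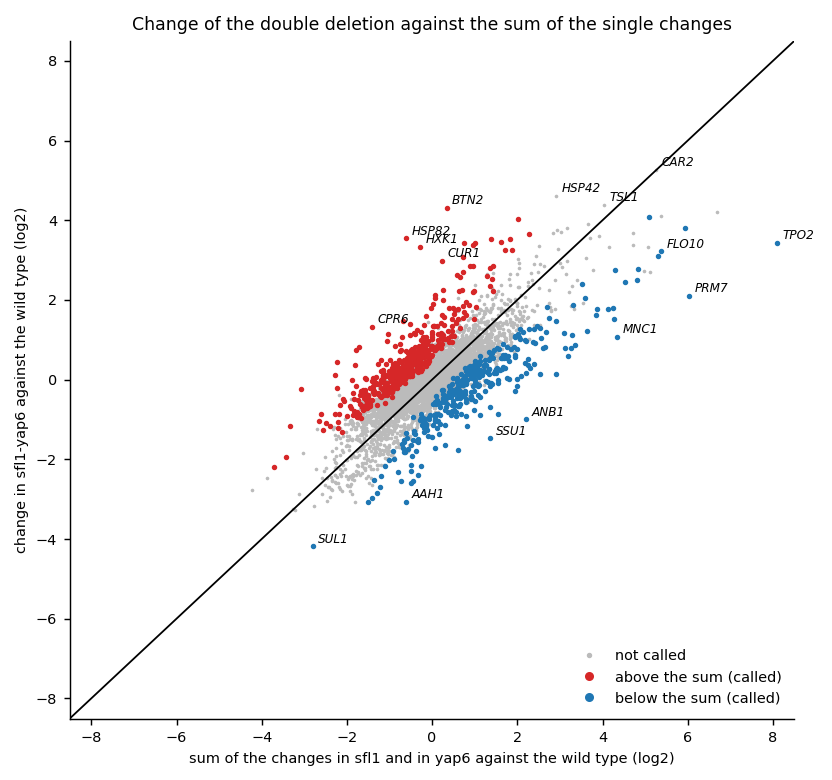
Change of each of the 5562 genes in sfl1-yap6 against the wild type (y axis, log2) plotted on the sum of its changes in sfl1 and in yap6 against the same wild-type arrays (x axis, log2); the line marks equality, and red and blue points are the 463 genes above and the 335 genes below it that were called. HSP82, BTN2, HXK1, CUR1 and CPR6 lie far above the line at a sum near or below 0, TPO2, PRM7 and MNC1 far below it at a sum well above 0, and CAR2 and TSL1 close to it.

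The heat shock chaperones, which fold new or damaged proteins, had the highest median departure of the 27 gene lists examined. Of the 15 measured, 13 were higher in the double deletion than in sfl1 (beside 20.0% of all genes). Against yap6 13 were higher (beside 12.6%), 13 lay above additivity (beside 8.32%), and none was lower in any of these. Their medians were 1.31, 1.18 and 1.55, beside 0.05, 0.03 and 0.07 over all genes. In the single deletions none of the 15 was higher than in the wild type, 3 were lower in sfl1 (beside 14.5% of all genes) and 3 lower in yap6 (beside 11.1%), at medians of -0.28 and -0.26. The mean over the list lay between 9.84 and 10.08 in the double deletion, between 8.39 and 8.89 in sfl1, between 8.57 and 8.64 in yap6 and between 8.78 and 8.99 in the wild type. Leaving out any 1 array, or normalising the arrays by quantiles, left 11 to 13 members higher in each of the 3 comparisons.

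HSP82, which encodes the inducible Hsp90 chaperone, read 12.08, 11.68 and 12.28 in the double deletion, 8.19, 8.75 and 8.04 in sfl1, 8.01, 8.08 and 7.91 in yap6, and 8.31, 8.90 and 8.19 in the wild type. The single deletions overlapped the wild type or lay below it, and the double deletion stood clear of all 9 arrays. The difference was 3.69 ± 0.34 (12.9-fold) against sfl1 (adjusted p = 1.61e-12, limma), 4.01 ± 0.34 (16.1-fold) against yap6 (adjusted p = 2.09e-13, limma) and 4.15 ± 0.48 for the departure (adjusted p = 8.48e-09, limma). HSC82, the constitutive Hsp90 gene, is nearly identical in its coding sequence, and cross-hybridisation between these genes was not tested. Its level read 12.65, 12.77 and 12.40 in the double deletion and between 12.36 and 12.94 in the other 9 arrays. HSC82 was not called against sfl1 (0.06, adjusted p = 0.795, limma) or yap6 (0.14, adjusted p = 0.55, limma).

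CPR6, a cyclophilin that binds Hsp90, read 10.65, 10.16 and 10.64 in the double deletion, 8.70, 8.97 and 7.95 in sfl1, 8.49, 8.24 and 8.38 in yap6, and 9.06, 9.31 and 9.10 in the wild type. Both single deletions lay below the wild type and the double deletion lay above it, with a departure of 2.73 ± 0.27 (adjusted p = 3.47e-10, limma). STI1, which bridges Hsp90 and Hsp70, read 9.21, 8.93 and 9.30 in the double deletion, 7.82, 8.42 and 7.27 in sfl1, 7.35, 6.95 and 7.03 in yap6, and 8.29, 8.33 and 8.37 in the wild type. STI1 showed the same order as CPR6 except that 1 sfl1 array reached the wild type, and its departure was 2.53 ± 0.38 (adjusted p = 3.44e-06, limma).

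Among the Hsp70 genes and their helpers the sizes were smaller. SSA4, an inducible cytosolic Hsp70, was higher by 1.00 against sfl1 and by 1.27 against yap6, and SSA2, a constitutive one, by 0.53 and 0.70. SSE2, an Hsp110 exchange factor, was higher by 1.47 and 1.87. SSE1, its close relative, was called against sfl1 (0.77) and not against yap6 (0.09). FES1, another exchange factor, was higher by 1.73 and 1.18. The cytosolic Hsp40 gene SIS1 was higher by 1.65 and 1.11, and YDJ1, another Hsp40 gene, by 0.64 and 0.71. YDJ1 read 12.42, 11.68 and 11.77 in the double deletion and 11.90, 12.06 and 11.98 in the wild type, so the double deletion was at the wild-type level while both single deletions were lower by -0.67 and -0.73. In the mitochondrion, MDJ1 (Hsp40) was higher by 1.72 and 1.61 and HSP60 (chaperonin) by 0.67 and 0.62. HSP78 read 7.91, 8.10 and 8.77 in the double deletion and between 4.44 and 5.94 in the other 9 arrays, a difference of 3.20 ± 0.39 against sfl1 (adjusted p = 4.36e-09, limma). SSA3, a further Hsp70 gene, was called against yap6 alone, by 0.37 ± 0.13.

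BTN2, a factor that gathers misfolded proteins into deposits, read 9.47, 8.53 and 8.98 in the double deletion, 5.05, 5.41 and 5.04 in sfl1, 4.44, 4.74 and 4.38 in yap6, and 4.76, 4.63 and 4.63 in the wild type. The groups did not overlap, and the difference was 3.83 ± 0.45 (14.2-fold) against sfl1 (adjusted p = 1.53e-09, limma) and 4.47 ± 0.45 (22.2-fold) against yap6 (adjusted p = 3.4e-11, limma). CUR1, the paralog of BTN2, read 7.87, 7.82 and 7.94 in the double deletion, 4.43, 4.51 and 4.91 in sfl1, 5.42, 5.61 and 5.26 in yap6, and 5.03, 4.86 and 4.82 in the wild type. No array of the double deletion reached another group, and the departure was 2.73 ± 0.46 (adjusted p = 3.25e-05, limma). BTN2 and CUR1 are not on the chaperone list, and the rule on the size of the change names them. Against the single deletions that rule also asked for no overlap of the arrays. For every gene that it names, here and in other paragraphs, the lack of overlap with a single deletion is no separate support.

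HSP104, the disaggregase, read 9.47, 9.18 and 9.79 in the double deletion, 5.82, 6.87 and 6.21 in sfl1, 7.10, 6.97 and 6.84 in yap6, and 5.71, 6.42 and 5.70 in the wild type. It was already higher in yap6 than in the wild type, by 1.03 (adjusted p = 0.00997, limma), and the double deletion exceeded the sum of the singles by 2.15 ± 0.43 (adjusted p = 0.00035, limma). HSP42, a small heat shock protein that works with Btn2, read 10.07, 10.62 and 9.94 in the double deletion, 6.46, 6.56 and 7.63 in sfl1, 7.72, 7.02 and 6.88 in yap6, and 5.34, 5.80 and 5.62 in the wild type. Both single deletions were higher than the wild type, and the double deletion lay clear of both. Its departure was 1.70 ± 0.65 and did not pass (adjusted p = 0.0686, limma).

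**Figure D3:**
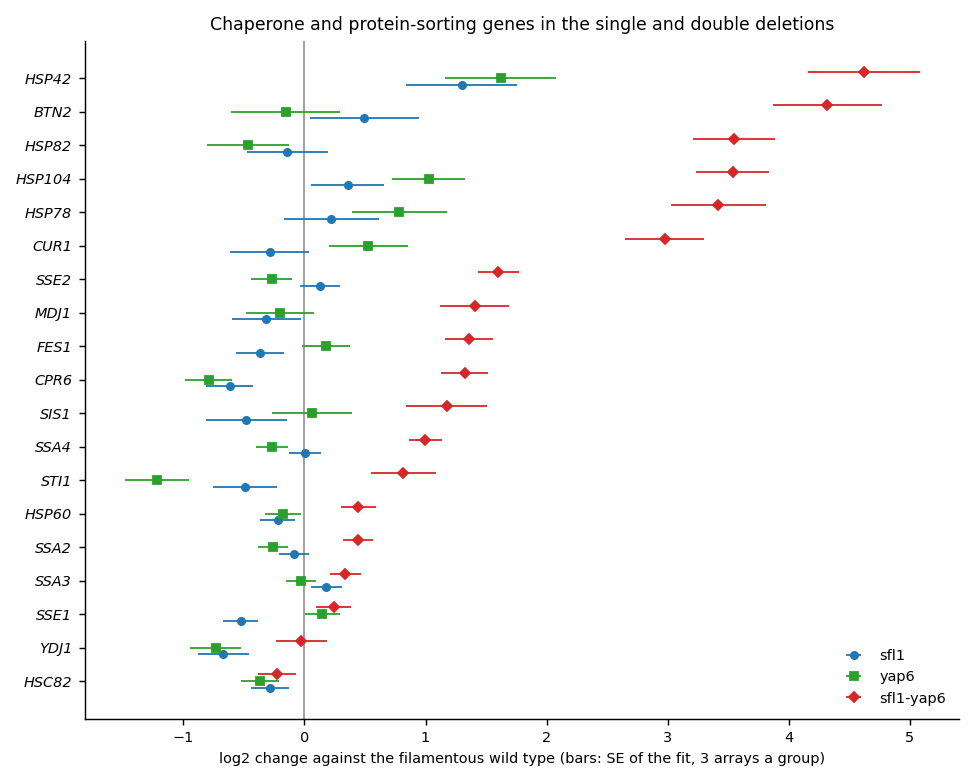
Log2 change against the wild type in sfl1 (circles), yap6 (squares) and sfl1-yap6 (diamonds) for the 15 heat shock chaperones with HSP104, HSP42, BTN2 and CUR1; bars are the standard error of the fit (3 arrays a group). The double deletion lies between 2.97 and 4.62 for HSP42, BTN2, HSP82, HSP104, HSP78 and CUR1, where the largest change in a single deletion is 1.62, and at -0.22 for HSC82.

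Across all 21 groups, which hold the other deletions and the yeast-form parent, the double deletion had the highest mean for 13 of the 15 chaperones, beside 16.1% of all genes. The mean over the list was 9.98 in the double deletion, 9.16 in cup9, the next group, and 9.42 in the highest single array outside it, a tec1-sok2 array. HSP82 averaged 12.01 ± 0.31 (SD, n = 3) in the double deletion and 9.85 in cup9-yap6, the next group. HSP104 averaged 9.48 ± 0.30 (SD, n = 3) and the next group, again cup9-yap6, 8.02.

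**Figure D4:**
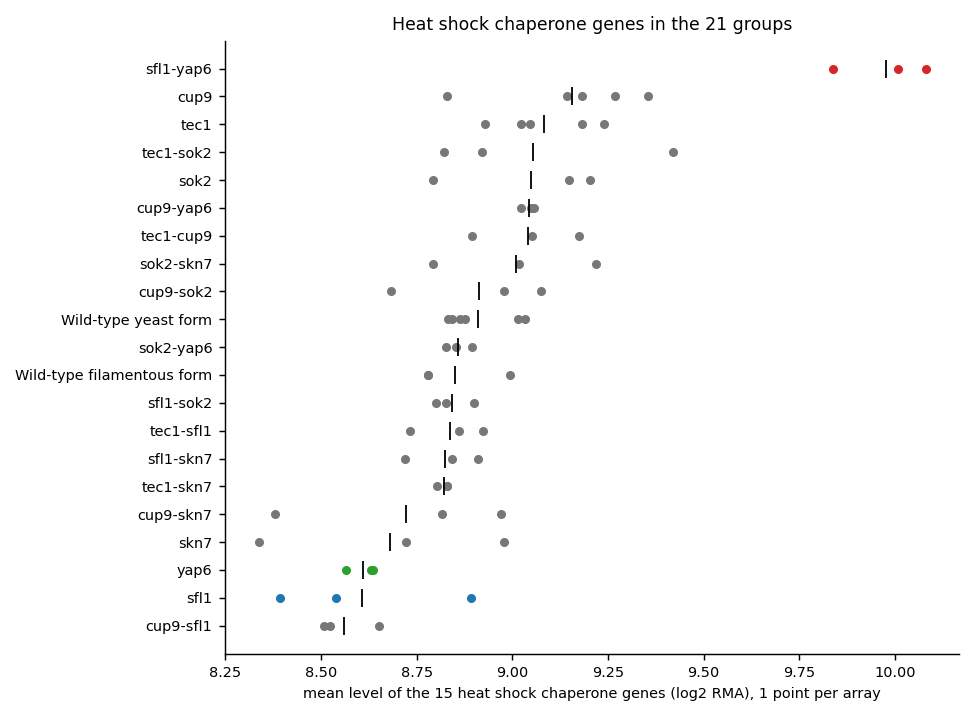
Mean log2 level of the 15 heat shock chaperones in each of the 70 arrays, by group, with the mean of each group as a black mark. The 3 sfl1-yap6 arrays (red) lie between 9.84 and 10.08, above all other arrays, whose highest is 9.42, while sfl1 (blue) and yap6 (green) are among the 3 lowest groups.

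General stress genes, the broad set that yeast induces under many stresses, rose in the double deletion against both singles. Of 24, 18 were higher than in sfl1 (beside 20.0% of all genes) and 20 higher than in yap6 (beside 12.6%), at medians of 1.38 and 1.79. Above additivity lay 6 of 24 (median 0.51), beside 8.32% of all genes at a median of 0.07. In the single deletions 10 were already higher in sfl1 (beside 10.3% of all genes) and 10 in yap6 (beside 12.6%) than in the wild type. Without array 3 of the double deletion, 3 of 24 lay above additivity. The mean over the list lay between 8.02 and 8.47 in the double deletion, between 6.55 and 7.05 in sfl1, between 6.41 and 6.79 in yap6 and between 5.70 and 5.92 in the wild type.

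HSP12, a membrane-bound small heat shock protein gene, read 9.91, 8.41 and 9.46 in the double deletion, 8.23, 7.73 and 7.42 in sfl1, 5.18, 5.30 and 5.45 in yap6, and 6.09, 5.88 and 6.60 in the wild type. It was high in both strains without SFL1, and higher by 3.95 ± 0.50 in the double deletion than in yap6 (adjusted p = 1.22e-08, limma). DDR48, a stress-induced gene, read 10.21, 10.45 and 10.95 in the double deletion, 9.52, 10.01 and 9.35 in sfl1, 8.58, 8.25 and 8.36 in yap6, and 6.37, 6.39 and 6.63 in the wild type. The 4 groups did not overlap, and the double deletion fell short of the sum by -1.03 ± 0.31 (adjusted p = 0.0172, limma). HSP30, a plasma membrane heat shock gene, ran the other way against yap6. It read 5.70, 8.17 and 5.86 in the double deletion, 4.64, 4.10 and 4.64 in sfl1, 8.73, 7.88 and 8.64 in yap6, and 3.93, 3.95 and 3.77 in the wild type. Array 2 of the double deletion reached the range of yap6, and the difference from yap6 was -1.84 (adjusted p = 0.0227, limma).

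Genes for the reserve carbohydrates trehalose and glycogen behaved like the stress genes, and 6 genes are on both lists. Of 16, 15 were higher than in sfl1 (beside 20.0% of all genes) and 13 higher than in yap6 (beside 12.6%), at medians of 1.41 and 1.24. Above additivity lay 3 (beside 8.32%). The mean over the list lay between 8.03 and 8.62 in the double deletion and between 5.92 and 7.26 in the other 9 arrays. GSY2, a glycogen synthase gene, read 8.76, 9.14 and 9.92 in the double deletion, 6.43, 6.53 and 7.17 in sfl1, 6.98, 6.59 and 6.25 in yap6, and 5.75, 5.86 and 5.64 in the wild type. The single deletions lay above the wild type and the double deletion above both, by 1.70 ± 0.43 more than the sum (adjusted p = 0.00566, limma). TSL1, a subunit of the trehalose synthase, read 10.36, 10.57 and 10.99 in the double deletion, 8.09, 7.82 and 9.15 in sfl1, 9.04, 8.02 and 7.54 in yap6, and 6.26, 6.58 and 5.94 in the wild type. Its order was the same, and the departure was 0.34 ± 0.61 (adjusted p = 0.75, limma). ATH1, the acid trehalase that breaks trehalose down, read 6.78, 6.83 and 6.96 in the double deletion and between 4.47 and 5.64 in the other 9 arrays, with a departure of 1.54 ± 0.25 (adjusted p = 2.2e-05, limma).

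HXK1, a hexokinase gene on the stress list, read 9.90, 9.80 and 10.48 in the double deletion, 6.50, 6.87 and 7.22 in sfl1, 6.46, 6.47 and 5.93 in yap6, and 7.05, 6.78 and 6.33 in the wild type. Neither single deletion was called against the wild type, and the double deletion was higher by 3.20 ± 0.47 (9.16-fold) than sfl1 (adjusted p = 2.94e-07, limma) and by 3.77 ± 0.47 (13.7-fold) than yap6 (adjusted p = 9.86e-09, limma). LEE1, a zinc finger gene, read 7.24, 7.36 and 9.06 in the double deletion and between 4.23 and 5.29 in the other 9 arrays. Array 3 of the double deletion stood above its other arrays, and the departure was 2.69. YGP1, a secreted glycoprotein gene induced in starved cells, read 8.99, 9.94 and 9.26 in the double deletion and between 6.24 and 7.52 in the other 9 arrays. YGP1 was higher by 2.22 than in sfl1 and by 2.51 than in yap6.

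**Figure D5:**
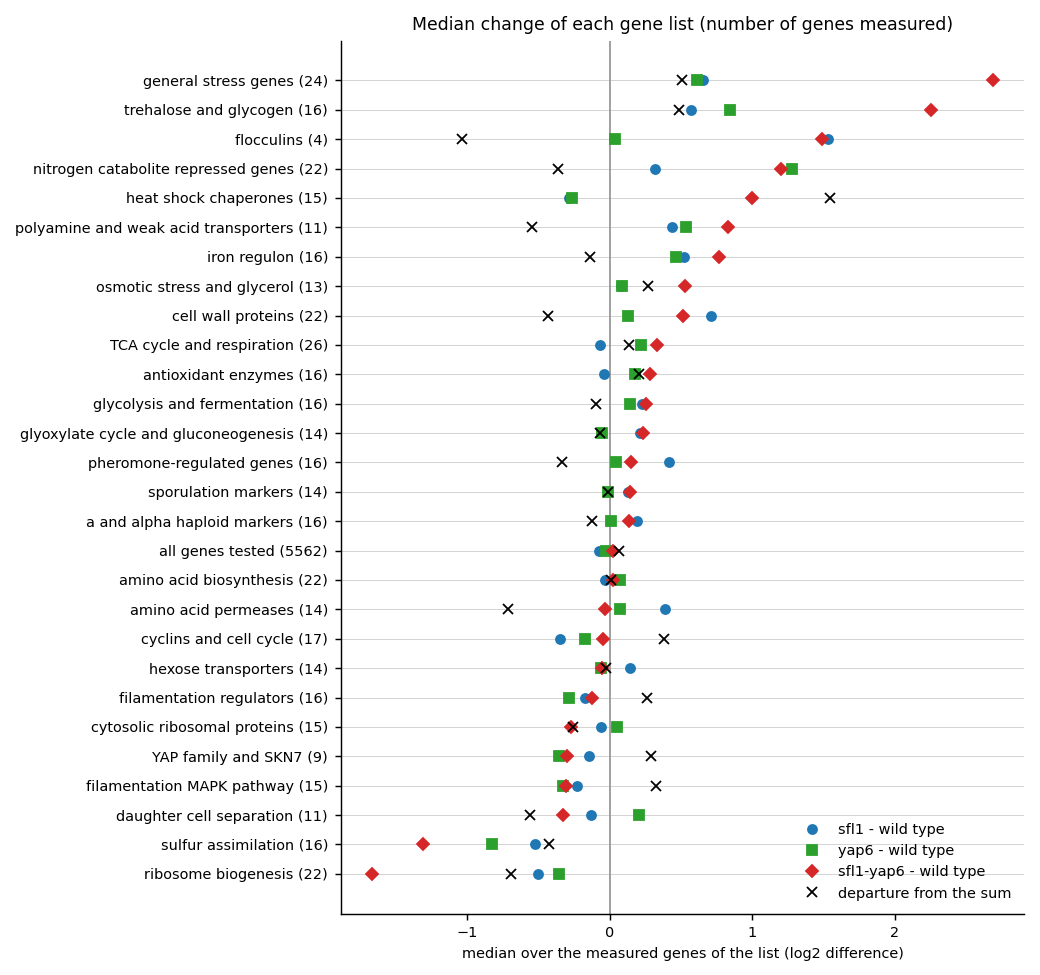
Median log2 change of 27 gene lists (number of genes measured in brackets) and of all genes in sfl1 (circles), yap6 (squares) and sfl1-yap6 (diamonds) against the wild type, with the median departure from additivity (crosses). The heat shock chaperones combine medians of -0.28 and -0.26 in the singles with 1.00 in the double, and the ribosome biogenesis and sulfur assimilation lists lie lowest in the double, at -1.67 and -1.31.

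Ribosome biogenesis genes were lower in the double deletion. Of 22, 18 were lower than in sfl1 (beside 13.6% of all genes) and 20 lower than in yap6 (beside 13.5%). None was higher, and the medians were -1.09 and -1.41. Below additivity lay 6 (beside 6.02%, median -0.69). Against the wild type 8 were lower in sfl1 (beside 14.5%), 5 in yap6 (beside 11.1%) and 20 in the double deletion (beside 22.7%). The double deletion had the lowest mean of all 21 groups for 21 of the 22 genes, beside 17.0% of all genes. Array 3 of the double deletion carried much of the size: the means over the list lay between 6.64 and 7.59 in the double deletion and between 8.11 and 9.14 in the other 9 arrays, and without that array 12 were lower than in sfl1 and 15 lower than in yap6.

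NSR1, the yeast nucleolin, read 9.33, 9.18 and 7.28 in the double deletion, 11.12, 10.88 and 10.81 in sfl1, 10.88, 10.89 and 11.02 in yap6, and 11.15, 10.96 and 11.42 in the wild type. The single deletions were near the wild type, all 3 double-deletion arrays were lower, and array 3 was far the lowest. The departure was -2.09 ± 0.40 (adjusted p = 0.000172, limma). DBP2, an RNA helicase gene, read 8.02, 8.22 and 7.35 in the double deletion and between 9.64 and 10.52 in the other 9 arrays, with a departure of -1.83 ± 0.38 (adjusted p = 0.000573, limma). NOP1, the methylase of ribosomal RNA, read 10.27, 10.36 and 9.26 in the double deletion and between 10.80 and 11.36 elsewhere, with a departure of -1.49 ± 0.23 (adjusted p = 8.23e-06, limma). The helicase gene DBP7 and SOF1 are both ribosome biogenesis factors named for their low level against the wild type. Their departures were estimated at -0.04 ± 0.48 and 0.01 ± 0.43. Errors of this width do not show that the double deletion was at the sum of the singles. The 15 cytosolic ribosomal protein genes moved less, with 3 lower than in sfl1 (beside 13.6% of all genes) and 4 lower than in yap6 (beside 13.5%). None was lower than in sfl1 without array 3 of the double deletion.

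AAH1, the adenine deaminase of purine salvage, read 6.85, 7.38 and 5.26 in the double deletion, 9.46, 9.58 and 9.05 in sfl1, 8.68, 9.36 and 9.39 in yap6, and 9.55, 9.48 and 9.64 in the wild type. As for NSR1, array 3 was the lowest and no array of the double deletion reached another group. AAH1 was lower by -2.86 ± 0.30 than in sfl1 (adjusted p = 5.45e-11, limma) and by -2.64 than in yap6 (adjusted p = 8.43e-10, limma), and lay below additivity by -2.45 ± 0.42 (adjusted p = 4.5e-05, limma). DLD3, a lactate dehydrogenase gene, read 8.21, 8.65 and 7.65 in the double deletion and between 10.21 and 10.81 in the other 9 arrays.

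Sulfur assimilation genes, which take up sulfate and reduce it for methionine and cysteine, were lower too. Of 16, 9 were lower than in sfl1 (beside 13.6% of all genes) and 7 lower than in yap6 (beside 13.5%), none was higher, and the medians were -0.86 and -0.56. Against the wild type 2 were lower in sfl1 (beside 14.5%), 6 in yap6 (beside 11.1%) and 13 in the double deletion (beside 22.7%). Below additivity lay 3 (beside 6.02%), none without array 3 of the double deletion, and 1 without array 1 of the wild type, array 2 of sfl1 or array 2 of yap6. SUL1, the high-affinity sulfate permease, read 6.67, 6.92 and 6.46 in the double deletion, 9.74, 10.20 and 9.93 in sfl1, 9.01, 9.00 and 8.94 in yap6, and 10.89, 10.79 and 10.94 in the wild type. The 4 groups formed 4 separate steps. SUL1 was lower by -3.27 ± 0.30 than in sfl1 (adjusted p = 2.45e-12, limma) and by -2.30 ± 0.30 than in yap6 (adjusted p = 4.21e-08, limma), and its departure was -1.39 ± 0.43 (adjusted p = 0.0229, limma), or -1.28 without array 3 of the double deletion (adjusted p = 0.0726, limma).

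MET14, the APS kinase that acts on activated sulfate, read 9.19, 9.52 and 8.69 in the double deletion, 10.71, 11.45 and 10.38 in sfl1, 10.41, 10.57 and 10.55 in yap6, and 11.56, 11.36 and 11.64 in the wild type. It was lower in the double deletion by -1.71 ± 0.31 than in sfl1 and by -1.37 ± 0.31 than in yap6, and its departure of -0.70 was not called (adjusted p = 0.287, limma). The sulfite reductase genes MET5 and MET10 were called below additivity, by -0.85 and -0.71. MUP1, a methionine permease gene, read 7.69, 9.52 and 6.97 in the double deletion and was lower than in sfl1 by -1.93 (adjusted p = 0.0051, limma), or by -1.38 without array 3 (adjusted p = 0.0911, limma). SSU1, the sulfite exporter, is not on this list. It read 8.37, 8.61 and 8.04 in the double deletion, 10.88, 10.50 and 10.94 in sfl1, 10.24, 10.13 and 10.30 in yap6, and 10.03, 9.40 and 10.01 in the wild type. Both single deletions lay above the wild type and the double deletion lay below it, with a departure of -2.84 ± 0.46 (adjusted p = 1.66e-05, limma).

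The flocculin list held 4 measured genes. Among them was FLO8, which is also on the list of filamentation regulators and is not an adhesin gene. FLO10 was the one whose level separated all 3 mutants. FLO10 read 7.82, 8.14 and 7.58 in the double deletion, 9.42, 9.75 and 9.93 in sfl1, 4.86, 4.92 and 5.03 in yap6, and 4.58, 4.67 and 4.64 in the wild type. It was high in sfl1, by 5.07 ± 0.24 (33.6-fold) against the wild type (adjusted p = 2.97e-24, limma), and near the wild type in yap6. The double deletion lay between them: -1.85 ± 0.24 (3.62-fold lower) against sfl1 (adjusted p = 1.78e-08, limma), 2.91 ± 0.24 against yap6 (adjusted p = 2.09e-13, limma), with a departure of -2.16 ± 0.34 (adjusted p = 9.29e-06, limma). FLO11 read 13.47, 13.33 and 13.29 in the double deletion, between 13.46 and 13.59 in sfl1, between 12.27 and 12.99 in yap6, and between 10.09 and 10.94 in the wild type. The double deletion overlapped sfl1 and lay above every yap6 array. It was not called against sfl1 (-0.16 ± 0.65, adjusted p = 0.876, limma) or yap6 (0.64 ± 0.65, adjusted p = 0.511, limma). These errors come from all 21 groups, where the SD of FLO11 reached 1.77 (cup9), beside 0.09 in the double deletion. The FLO11 departure of -2.25 ± 0.93 was not called (adjusted p = 0.0927, limma), but it passed when these groups alone were fitted (adjusted p = 0.000628, limma). FLO1 read 4.06, 4.04 and 4.33 in the double deletion and between 3.29 and 4.35 in the other 9 arrays, and FLO8 was likewise not called.

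A set of genes raised by the loss of SFL1 was not raised when YAP6 was missing as well. ANB1, an isoform of translation factor eIF5A that is made when oxygen is low, read 6.75, 7.00 and 6.81 in the double deletion, 11.44, 11.31 and 10.66 in sfl1, 6.57, 6.92 and 6.81 in yap6, and 7.38, 8.02 and 8.14 in the wild type. The double deletion was at the level of yap6, just under the wild type, and below sfl1 by -4.28 ± 0.71 (19.5-fold lower; adjusted p = 3.67e-06, limma). The departure was -3.20 ± 1.01 (adjusted p = 0.0256, limma), and leaving out array 1 of sfl1, array 3 of the double deletion or array 1 of the wild type in turn gave adjusted p of 0.0521, 0.0548 and 0.0633. Low ANB1 without SFL1 was not particular to the loss of YAP6. Its mean was 11.14 in sfl1, 7.29 in sfl1-sok2 and 7.89 in cup9-sfl1, but 10.37 in sfl1-skn7 and 9.50 in tec1-sfl1.

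RTA1, a membrane protein gene, read 6.27, 6.51 and 6.26 in the double deletion, 8.87, 8.93 and 9.03 in sfl1, 6.32, 6.38 and 6.42 in yap6, and 6.27, 6.12 and 6.24 in the wild type. Among these 4 groups it was high in the sfl1 arrays alone (departure -2.76 ± 0.33, adjusted p = 2.03e-08, limma). RTA1 averaged 8.94 in sfl1, and stayed high in sfl1-sok2 (8.37) and cup9-sfl1 (8.41). TIR1, a cell wall mannoprotein of cold and anaerobic cells, read 9.20, 9.04 and 9.14 in the double deletion, 11.75, 11.27 and 11.15 in sfl1, 8.98, 8.74 and 8.74 in yap6, and 9.01, 9.17 and 9.15 in the wild type, with a departure of -1.97 ± 0.43 (adjusted p = 0.00127, limma). The vitamin B6 genes SNO1 and SNZ1, which lie side by side in the genome, were lower in the double deletion than in sfl1 by -2.85 ± 0.39 and -2.39 ± 0.36. SNO1 read 5.59, 5.50 and 5.54 in the double deletion, 8.90, 7.81 and 8.46 in sfl1, 5.97, 5.99 and 5.95 in yap6, and 6.75, 6.47 and 6.00 in the wild type.

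PRM7, a pheromone-regulated membrane protein gene, read 8.69, 9.21 and 7.34 in the double deletion, 11.34, 10.88 and 10.73 in sfl1, 6.93, 7.58 and 8.54 in yap6, and 6.30, 6.35 and 6.29 in the wild type. It was high in sfl1, middling in the double deletion and yap6, which overlapped, and low in the wild type. The departure was -3.94 ± 0.67 (adjusted p = 3.62e-05, limma). PRM7 averaged 8.41 in sfl1-yap6 and 7.79 in sfl1-sok2, but 11.61 in cup9-sfl1, 11.15 in sfl1-skn7 and 11.70 in tec1-sfl1. Of the 16 pheromone-regulated genes, 3 were lower (beside 13.6% of all genes) and 1 higher (beside 20.0%) in the double deletion than in sfl1. Below additivity lay 5, beside 6.02% of all genes (PRM7, PRM8, PRM10, PRM5 and PRM4). AGA1, the anchor of agglutinin, lay above it: AGA1 read 8.14, 8.57 and 7.87 in the double deletion and between 6.28 and 7.49 in the other 9 arrays. Of 22 cell wall protein genes, 5 were lower than in sfl1, beside 13.6% of all genes (TIP1, TIR1, DAN1, CIS3 and GSC2). Only 2 were higher, beside 20.0% (YGP1 and SPI1). Against yap6 6 were higher, beside 12.6% (3 without array 2 of yap6), and none lower. In sfl1 13 were higher than in the wild type (beside 10.3%).

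Of the 14 genes on the amino acid permease list, 9 were lower in the double deletion than in sfl1 (beside 13.6% of all genes), at a median of -0.81. Only 1 was higher (beside 20.0%), OPT2, a gene of the oligopeptide transporter family. Against yap6, 3 were lower (beside 13.5%) and 1 higher (beside 12.6%), and the median was -0.26. Without array 3 of the double deletion 5 were lower than in sfl1 and none lower than in yap6, and without its array 2 5 were lower than in yap6. TAT2, a tryptophan and tyrosine permease gene, read 6.02, 6.19 and 5.50 in the double deletion, 7.69, 7.36 and 7.23 in sfl1, 6.65, 6.95 and 7.17 in yap6, and 7.10, 7.14 and 7.11 in the wild type. The double deletion was below every other array. AGP1, a broad permease gene, read 7.09, 7.92 and 7.64 in the double deletion, 8.62, 7.85 and 8.95 in sfl1, 7.86, 7.57 and 7.49 in yap6, and 6.75, 6.72 and 6.73 in the wild type. All 3 mutants lay above the wild type, and the departure was -1.83 ± 0.45 (adjusted p = 0.00398, limma).

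Some genes raised by the loss of YAP6 were held lower when SFL1 was missing as well. TPO2, a polyamine exporter gene, had the lowest departure among the called genes with a standard name. It read 6.23, 9.13 and 7.08 in the double deletion, 5.48, 5.65 and 5.31 in sfl1, 10.87, 10.49 and 10.82 in yap6, and 4.32, 4.26 and 3.57 in the wild type. Array 2 of the double deletion stood between its other arrays and the yap6 arrays, and the groups did not overlap. TPO2 was higher in yap6 than in the wild type by 6.68 ± 0.60 (adjusted p = 1.67e-12, limma), lower in the double deletion than in yap6 by -3.25 ± 0.60 (adjusted p = 2.88e-05, limma), and below additivity by -4.68 ± 0.84 (adjusted p = 9.87e-05, limma). Against sfl1 it was higher by 2.00 ± 0.60 (adjusted p = 0.00683, limma), or by 1.17 without array 2 of the double deletion (adjusted p = 0.144, limma). RTC2, a vacuolar transporter gene, read 8.49, 9.49 and 9.95 in the double deletion, 8.29, 7.58 and 10.59 in sfl1, 11.45, 11.09 and 10.53 in yap6, and 8.07, 7.88 and 7.42 in the wild type. Array 3 of sfl1 stood with yap6, and the departure was -2.75 ± 0.65 (adjusted p = 0.00266, limma). Of 11 polyamine and weak acid transporter genes, 3 lay below additivity, beside 6.02% of all genes (TPO2, AQR1 and TPO3), and none above.

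Nitrogen catabolite repressed genes, which take up and break down poor nitrogen sources, lay near the level of yap6 in the double deletion. Of 22, 14 were higher than in sfl1 (beside 20.0% of all genes, median 1.48) and none lower. Against yap6 2 were higher (beside 12.6%) and 1 lower (beside 13.5%), at a median of -0.13. Against the wild type 8 were higher in sfl1 (beside 10.3%), 16 in yap6 (beside 12.6%) and 16 in the double deletion (beside 23.9%). Array 3 of sfl1 stood apart for several of them. PUT4, the proline permease, read 11.39, 11.90 and 12.10 in the double deletion, 8.17, 7.99 and 11.57 in sfl1, 11.93, 11.61 and 10.96 in yap6, and 8.06, 7.80 and 7.20 in the wild type, and UGA4, a permease for GABA, read 8.14, 7.87 and 11.36 in sfl1. For PUT4 array 3 of sfl1 lay with the double deletion while the other sfl1 arrays lay with the wild type. UGA4 was higher in the double deletion than in sfl1 by 2.22 ± 0.77 (adjusted p = 0.021, limma), a call lost without array 1 (adjusted p = 0.134) or array 2 of sfl1 (adjusted p = 0.141). GAP1, the general amino acid permease, read 12.61, 12.38 and 12.87 in the double deletion, 10.61, 10.75 and 11.70 in sfl1, 12.41, 12.01 and 12.07 in yap6, and 11.46, 11.74 and 11.27 in the wild type. Leaving out array 3 of sfl1 left 15 of 22 higher than in sfl1.

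CAR2, which breaks down ornithine from arginine, lay close to the sum of the singles, with a wide error. It read 11.61, 11.68 and 12.52 in the double deletion, 9.66, 8.24 and 10.35 in sfl1, 9.71, 9.27 and 8.53 in yap6, and 6.76, 7.07 and 6.18 in the wild type. The single deletions overlapped each other at a middle level and the double deletion stood above both. The changes against the wild type were 2.75 in sfl1, 2.50 in yap6 and 5.27 in the double deletion, and the departure was 0.01 ± 0.84 (adjusted p = 0.994, limma).

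For other genes each single deletion made a change that the double deletion did not add up. MNC1 read 7.96, 8.11 and 8.13 in the double deletion, 9.59, 9.63 and 9.78 in sfl1, 8.49, 8.85 and 8.64 in yap6, and 6.75, 6.77 and 7.46 in the wild type. The double deletion lay below both singles and above the wild type, with a departure of -3.27 ± 0.39 (adjusted p = 2.07e-08, limma). PUN1, a plasma membrane protein gene, read 9.67, 9.88 and 9.86 in the double deletion, 10.97, 11.04 and 11.05 in sfl1, 10.23, 10.40 and 10.00 in yap6, and 8.81, 9.03 and 8.96 in the wild type, in the same order (departure -2.49 ± 0.26, adjusted p = 4.37e-10, limma). GPD1, which makes glycerol-3-phosphate for the osmotic stress response, read 11.46, 11.91 and 11.72 in the double deletion, 11.22, 11.69 and 11.86 in sfl1, 11.08, 11.01 and 10.66 in yap6, and 8.62, 8.59 and 8.61 in the wild type. GPD1 was high in all 3 mutants, overlapped between sfl1 and the double deletion, and fell short of the sum by -2.21 ± 0.43 (adjusted p = 0.000242, limma). CMK2, a calmodulin-dependent kinase gene, and MST27, a gene of vesicle transport, had departures of -2.60 and -2.46 of this kind, as did TIS11, an RNA-binding regulator of iron use (-2.31).

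The reverse case was a fall in both singles and none in the double. ADA2, a coactivator subunit of histone acetylase complexes, read 5.60, 5.60 and 5.56 in the double deletion, 4.32, 3.60 and 4.42 in sfl1, 4.29, 4.30 and 4.80 in yap6, and 5.79, 5.82 and 5.86 in the wild type. The double deletion lay close under the wild type, and the departure was 2.83 ± 0.65 (adjusted p = 0.00196, limma). HRP1, an RNA-binding protein of mRNA end formation, read 9.87, 9.63 and 9.90 in the double deletion, 8.47, 8.13 and 7.99 in sfl1, 7.91, 8.32 and 8.13 in yap6, and 9.02, 8.97 and 9.15 in the wild type. Both singles were below the wild type and the double above it (departure 2.53, adjusted p = 2.02e-07, limma). PBI2, an inhibitor of vacuolar proteinase B, read 11.06, 10.77 and 11.55 in the double deletion, 9.05, 10.16 and 9.37 in sfl1, 9.50, 9.74 and 9.54 in yap6, and 10.88, 10.73 and 10.43 in the wild type. The double deletion overlapped the wild type and the singles lay lower (departure 2.68 ± 0.49, adjusted p = 0.000119, limma). Among 17 cyclin and cell cycle genes 5 lay above additivity (beside 8.32% of all genes) and none below. Without array 2 of sfl1, array 2 of yap6 or array 3 of the double deletion, 3 lay above it. CDC20, an activator of the anaphase-promoting complex, read 6.91, 6.83 and 7.10 in the double deletion, 6.25, 6.17 and 5.99 in sfl1, 6.14, 6.46 and 6.37 in yap6, and 6.91, 6.88 and 6.88 in the wild type, where the double deletion and the wild type overlapped above both singles.

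Genes of the Yap family and of the regulators of filamentation were called against sfl1 at shares near the 33.6% of all genes. Of the 9 genes on the Yap family list, which includes SKN7, none was called against yap6, 1 was higher (CAD1, 0.69) and 2 lower (CIN5, -1.25, and SKN7, -0.69) against sfl1, and 2 were above additivity, beside 8.32% of all genes: YAP1 (1.15 ± 0.28, adjusted p = 0.00355, limma) and YAP6 itself, a deleted gene near the lower end of the scale. YAP1 read 7.20, 6.77 and 7.06 in the double deletion, 6.47, 7.14 and 6.07 in sfl1, 6.53, 6.47 and 6.66 in yap6, and 7.23, 7.34 and 7.20 in the wild type. It was lower in the singles and near the wild type in the double. Of the 15 genes of the filamentation MAP kinase pathway, 2 were higher and 3 lower than in sfl1. Against yap6 2 were higher (beside 12.6% of all genes) and 1 lower (beside 13.5%). SHO1, an upstream membrane protein, read 5.64, 6.40 and 5.79 in the double deletion, 6.54, 6.90 and 6.59 in sfl1, 6.82, 7.18 and 7.04 in yap6, and 7.29, 7.43 and 7.22 in the wild type, and was below both singles by -0.73 and -1.07. OPY2, another upstream membrane protein, read 8.19, 6.52 and 8.36 in the double deletion, where array 2 lay in the range of the other groups. Of the 16 genes on the list of filamentation regulators, which includes the deleted SFL1 and shares TEC1 with the pathway list, 2 were higher and 3 lower than in sfl1 and none departed from additivity. None was lower than in sfl1 without array 1 of sfl1 or without array 1 of the double deletion, and 1 was lower without array 2 of the double deletion. MGA1, a gene related to heat shock factor, read 6.98, 6.68 and 7.44 in the double deletion, 5.79, 5.40 and 6.99 in sfl1, 5.24, 5.06 and 5.21 in yap6, and 4.14, 4.01 and 4.20 in the wild type. MGA1 rose against yap6 by 1.86 ± 0.37 (adjusted p = 0.000111, limma), and its departure was -0.08 ± 0.53.

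The same deletions had also been made in a strain without SOK2, another regulator of filamentation, which allowed a test of whether the partner mattered. The effect of deleting YAP6 in the sfl1 strain differed from its effect in sok2 for 267 genes upward (4.80%) and 169 downward (3.04%), 7.84% in all. This split was 264 and 252 after quantile normalisation, and 101 genes differed in all when the groups compared were fitted alone. The effect of deleting SFL1 in the yap6 strain differed from its effect in sok2 for 381 genes upward (6.85%) and 316 downward (5.68%), 12.5% in all. The sfl1-yap6 arrays enter both tests, so the tests are not independent of each other.

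Of the 15 chaperones, 13 differed upward in the first test (beside 4.80% of all genes) and 12 in the second (beside 6.85%), and none downward. HSP82 averaged 9.35 ± 0.69 in sok2, 8.89 ± 0.33 in sok2-yap6 and 9.12 ± 0.27 in sfl1-sok2 (SD, n = 3 each), so neither added deletion came with a higher mean there, and the differences in effect were 4.14 ± 0.48 (adjusted p = 1.82e-08, limma) and 4.24 ± 0.48 (adjusted p = 5.87e-09, limma). HXK1 averaged 8.54 ± 0.41 in sok2 and 6.20 ± 1.47 in sok2-yap6, a lower mean where the sfl1 strain showed a higher one, and the effect of YAP6 loss differed by 5.53 ± 0.66 (adjusted p = 4.52e-08, limma). ANB1 averaged 5.90 ± 0.07 in sok2 and 5.93 ± 0.09 in sok2-yap6, the lowest means of the 21 groups, and the difference in effect was -4.31 ± 1.01 (adjusted p = 0.00334, limma).

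Of the 4 genes measured on the flocculin list, 1 differed downward in the test of YAP6 loss (beside 3.04% of all genes). In that of SFL1 loss 2 did (beside 5.68%), and none differed upward in either. FLO10 averaged 10.64 ± 0.27 in sfl1-sok2 and 4.69 ± 0.27 in sok2 (SD, n = 3 each), while it was 7.85 ± 0.28 in sfl1-yap6, and the rise on loss of SFL1 was smaller in yap6 than in sok2 by -3.04 ± 0.34 (adjusted p = 5.87e-09, limma). FLO1 averaged 8.48 ± 0.54 in sfl1-sok2, the highest of the 21 groups, and 4.14 ± 0.16 in sfl1-yap6, a difference in effect of -3.74 ± 0.44 (adjusted p = 1.92e-08, limma). TPO2 was high in sok2 (9.35 ± 0.17), sok2-yap6 (9.89 ± 0.31) and sfl1-sok2 (9.60 ± 0.33), where the mean with SFL1 deleted was not below that of sok2, and the difference in effect was -3.49 ± 0.84 (adjusted p = 0.00381, limma). SUL1 was nearly as low in sok2-yap6 (6.87 ± 0.38) as in sfl1-yap6 (6.69 ± 0.23), the lowest of the 21 groups, and their arrays overlapped. The effect of YAP6 loss on SUL1 in sfl1 less that in sok2 was -0.98 ± 0.43 (adjusted p = 0.157, limma).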

How the data were processed

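Colony RNA was measured on Affymetrix arrays. Per the submitters' processing notes the authors used RMA, and the deposited table of 70 arrays holds log2 values (from the values); the notes give no version. From these values, 5668 of 6739 probe sets were named to 1 gene through the platform annotation and RefSeq, 166 to several and 905 to none, and the brightest-on-average probe set stood for each of 80 genes with several. This left 5562 genes. All 21 groups were fitted as means in limma 3.58.1 (R 4.3.3), with 49 residual degrees of freedom, and contrasts were drawn from that fit, tested two-sided and adjusted by Benjamini-Hochberg. The fit was tested on simulated data. Genes were named by size of change among those called (12, 10 or 4 each way, and 4 a list). Those named against a single deletion (12 each way) also had to show no overlap of its arrays with those of the double deletion. The members, 27 gene lists and tests were chosen with earlier results of these data known. Lists carry no set test, and 13 listed symbols were not measured. The number of arrays limits precision. Sequences were not used.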

Additional observations from a re-analysis of the deposited data

Results flagged for a closer look

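The results below come from tests of whether an effect differs between backgrounds, with all 21 groups in the limma fit. The effect of deleting YAP6 differed between the sfl1 strain and the wild type (the departure from additivity) for 463 genes upward and 335 downward. The largest positive values were 4.15 for HSP82, 3.98 for BTN2, 3.63 for HXK1, 2.83 for ADA2, 2.73 for both CUR1 and CPR6, 2.69 for LEE1, 2.68 for PBI2 and 2.53 for both HRP1 and STI1. The largest negative values were -4.68 for TPO2, -3.94 for PRM7, -3.27 for MNC1, -3.20 for ANB1, -2.84 for SSU1, -2.76 for RTA1, -2.75 for RTC2, -2.60 for CMK2, -2.49 for PUN1 and -2.46 for MST27.

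The effect of deleting YAP6 differed between the sfl1 and the sok2 strains for 267 genes upward and 169 downward, among them HXK1 (5.53), HSP82 (4.14), BTN2 (4.08), HSP104 (3.11), ANB1 (-4.31), PRM7 (-3.02), PRM8 (-2.85) and SNO1 (-2.77). The effect of deleting SFL1 differed between the yap6 and the sok2 strains for 381 genes upward and 316 downward, among them HPF1 (4.59), BTN2 (4.30), HSP82 (4.24), HXK1 (3.70), FLO1 (-3.74), TPO2 (-3.49), FLO10 (-3.04) and INA1 (-2.73). HPF1, a cell wall mannoprotein gene, averaged 12.50 in sok2, 6.68 with an SD of 2.13 in sfl1-sok2, 7.60 in yap6 and 6.37 in sfl1-yap6 (n = 3 each). Single outlying arrays in groups of 3 were not tested.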

How the results depend on the processing

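The counts of called genes in the 6 comparisons of the double deletion were recomputed under several settings. These were quantile normalisation, the dimmest 25% of genes left out, the mean of a gene's probe sets, and a trended and robust limma fit. In others the compared groups were fitted alone, a replicate block was added, or each array was left out in turn. Named genes were followed against sfl1, against yap6 and for the departure, where no named call changed direction. Named calls in the other comparisons were not followed. The compared groups alone called 1078 genes against sfl1 and 101 for the effect of YAP6 loss in sfl1 less that in sok2, and the cause was not tested. Leaving out 1 array gave 1285 to 1975 genes against sfl1, 817 to 1466 against yap6 and 438 to 1013 for the departure. It gave 2123 to 2441 against the wild type, 207 to 593 for the effect of YAP6 loss and 369 to 878 for that of SFL1 loss against sok2. These fits hold fewer arrays. Calls were lost under at least 1 alternative for 32 of 111 named genes against sfl1, 30 of 93 against yap6 and 33 of 82 for the departure. Counts by gene list were recomputed only with quantile normalisation and without each array, and both were added after seeing the data. List counts in the tests against sok2 and counts of the singles against the wild type, of arrays that did not overlap and over the 21 groups were not recomputed. The main fit did not pair arrays by replicate number. Same-number correlations of deviations ran from -0.35 to 0.25 for the departure and up to 0.38 for YAP6 loss against sok2. Arrays of different numbers were not correlated, so this cannot decide whether the numbers pair arrays. The replicate block gave 1812, 1379, 730, 2542, 397 and 627 calls in the order of the 6 comparisons, all within 1.5 times the counts without it. Dim genes such as YAP6 sit near the lower end of the scale, so small differences there were hard to detect.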

Other observations

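The list counts of this section are to be read beside the shares of all genes. In the double deletion 20.0% of all genes were higher and 13.6% lower than in sfl1. Against yap6 12.6% were higher and 13.5% lower, and 8.32% lay above and 6.02% below additivity. Of 26 TCA cycle and respiration genes, 11 were higher and none lower in the double deletion than in sfl1, while against yap6 2 were higher and 2 lower. The 11 became 5 without array 1 of sfl1, and 7 without array 3 of sfl1 or array 3 of the double deletion. LSC2, a succinyl-CoA ligase subunit gene, read 9.30, 8.80 and 9.43 in the double deletion and between 7.48 and 8.27 in the other 9 arrays, with a departure of 1.54 ± 0.34 (adjusted p = 0.00109, limma). HAP4, the activating subunit of the factor that drives respiration genes, read 6.18, 5.37 and 5.95 in the double deletion, 6.51, 6.08 and 5.80 in sfl1, 6.25, 6.05 and 5.69 in yap6, and 7.73, 8.13 and 7.49 in the wild type. All 3 mutants lay below the wild type and overlapped each other. Of 16 glycolysis and fermentation genes, 3 were higher than in sfl1 (18.8%, near the share of all genes) and 1 higher than in yap6. None departed from additivity. Of 14 glyoxylate cycle and gluconeogenesis genes, 3 were higher and 2 lower than in sfl1, and 1 lay below additivity. Of 14 hexose transporters, 1 was higher and 2 lower than in sfl1, and 1 was lower than in yap6.

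Of 16 antioxidant genes, 7 were higher (beside 20.0% of all genes) and none lower than in sfl1. Against yap6 4 were higher (beside 12.6%) and 2 lower (beside 13.5%), and 4 lay above additivity (beside 8.32%). Without array 3 of yap6, 2 were higher than in yap6, and 2 lay above additivity without array 2 of the wild type, array 1 or 3 of sfl1 or array 1 or 3 of the double deletion. PRX1, a mitochondrial peroxiredoxin gene, read 7.70, 7.50 and 8.00 in the double deletion and between 5.46 and 6.23 in the other 9 arrays, a difference of 2.06 ± 0.29 against sfl1 (adjusted p = 1.47e-07, limma). Of 13 osmotic stress and glycerol genes, 8 were higher (beside 20.0%) and 1 lower (beside 13.6%) than in sfl1. Against yap6 7 were higher (beside 12.6%) and none lower. There 3 were higher without array 3 of yap6 and 4 without array 2 of yap6 or array 3 of the double deletion. GPP2, which makes glycerol from its phosphate, read 8.10, 7.34 and 7.96 in the double deletion, 6.75, 7.40 and 6.81 in sfl1, 5.43, 5.71 and 5.43 in yap6, and 5.92, 6.05 and 6.07 in the wild type. It was high in both strains without SFL1, and array 2 of each overlapped the other group. Of 16 iron regulon genes, 5 were higher than in sfl1 (beside 20.0%), or 3 without array 2 of sfl1 or array 3 of the double deletion. Against yap6 3 were higher (beside 12.6%). HMX1, the heme oxygenase, read 7.66, 7.57 and 8.25 in the double deletion, 6.36, 6.07 and 6.79 in sfl1, 7.64, 7.02 and 7.01 in yap6, and 6.72, 7.14 and 6.76 in the wild type. The double deletion stood above sfl1 and overlapped yap6 in 1 array. Of 22 amino acid biosynthesis genes, 5 were higher (22.7%, beside 20.0%) and 4 lower (18.2%, beside 13.6%) than in sfl1. The 5 became 9 without array 2 of sfl1, and 3 without array 1 of sfl1 or array 3 of the double deletion. Against yap6 1 was higher (4.55%, beside 12.6%) and 3 lower (13.6%, beside 13.5%). Of 11 daughter cell separation genes, 2 were higher (beside 20.0%) and 3 lower (beside 13.6%) than in sfl1, and 4 were lower than in yap6 (beside 13.5%).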
